A study of Mus musculus with 6 samples.

Results

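Transcripts of the IL-6 cytokine family and its receptors were followed across the cells of the injured mouse rotator cuff. The 10 genes, of 32285 measured, were chosen by their symbols. They are the ligands Il6, Lif, Osm and Il11, the receptor subunits Il6ra, Il6st, Osmr, Lifr and Il11ra1, and the feedback inhibitor Socs3. All 10 were detected. The enthesis is the fibrocartilaginous attachment of tendon to bone, and single-cell RNA-seq was performed on rotator cuff entheses at 7 days post injury (dpi). The series holds 3 wild-type libraries and 3 libraries from mice lacking Nlrp3, which encodes the sensor protein of an inflammasome that matures IL-1β and IL-18.

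Both groups underwent the same injury and repair surgery at 12 to 14 weeks of age, and no uninjured library entered these comparisons. Wild-type mice were purchased C57BL/6 animals and the Nlrp3-/- mice came from a different supplier. The methods describe pooling of entheses after harvest, while the sample size stated for each genotype equals its number of libraries and is described as independent replicates. Whether a library came from a single mouse or from a pool is therefore unclear, and the p-values below measure the spread between these libraries, part of which may be technical. The genotype field of knockout replicates 2 and 3 names Nlrp4 and Nlrp5, whereas all 3 titles name Nlrp3. Nlrp3 itself was at 94.5, 165 and 137 CPM (counts per 1000000 counts) in wild-type replicates 1, 2 and 3 and had 0 UMIs in every knockout library, which allows at most 0.0538 CPM. The X-inactivation transcript Xist stood at 783 to 927 CPM in the knockout libraries and at most 0.103 CPM in wild type, and Ddx3y, a Y-linked gene, showed the opposite pattern (39.6 to 57.6 CPM in wild type and 0 UMIs in knockout). Genotype and sex therefore cannot be told apart.

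Each library held between 97042713 and 134901999 UMIs (unique molecular identifiers, which count RNA molecules). After cell calling and removal of doublets 80366 cells remained, of which 70582 were used. Clusters mostly made of shallow cells of a single library were set aside, and these were 45.5% of the cells of knockout replicate 1 against 0.646% to 0.856% of the other libraries. Pairs of libraries shared between 26 and 96 cell barcodes. The cells were clustered without the 10 genes and named by marker lists, so a name means cells resembling that type. A cluster led by Ccr2 and F13a1 scored highest on the macrophage list, but its leading genes held more markers of another list, and it is called Ccr2 F13a1 cells. In pericytes and smooth muscle cells the 8 markers of the muscle cell list summed to 296 to 1368 CPM, against at most 36.6 in any other type compared. Their mesenchymal markers summed to 10153, 13357 and 33585 CPM in wild-type replicates 1, 2 and 3, beside 10155, 12445 and 14850 for their own. The part of other cells in the levels of this type was not tested. UMIs were summed for each library and cell type, and 12 types with at least 20 cells in all 6 libraries were compared. A level is given in CPM, the UMIs of a gene per 1000000 UMIs of all genes in that type and library. Means are given ± SD over 3 libraries.

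IL-6 family cytokines signal through receptor complexes that share gp130, the protein encoded by Il6st. A private subunit decides which ligand the complex binds: Il6ra binds IL-6, Il11ra1 binds IL-11, Lifr takes part in LIF signalling and Osmr in that of oncostatin M (OSM). Ligand binding activates JAK kinases and the transcription factor STAT3, which induces Socs3, and the SOCS3 protein in turn binds gp130 and dampens the signal. In wounds and in inflamed joints the family is known as a link between leukocytes and stromal cells.

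Because STAT dimers bind the palindrome TTCNNNGAA, the 250 bases before each RefSeq start were searched for it (the motif reads the same on both strands, and matches were counted once). The motif was present in 7.02% of 32851 promoters. Among the 12 promoter entries found for 9 of the genes, the only match lay before the RefSeq start of Socs3. It is shown with 10 bases on either side, 5′ to 3′ and with the motif in capitals, from RefSeq on GRCm38.p6, minus strand, chr11:117969502-117969530. The match begins 154 bases before the RefSeq start and lies inside the longer span that the gene annotation of the files gives for Socs3 (chr11:117966079-117970047, minus strand).
Socs3 site: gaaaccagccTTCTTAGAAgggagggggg
A match is a description of the letters and does not show that a factor bound there. Osm had no entry.

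The first comparison asked which wild-type cells carried the ligands and which the receptors. Every pair of the 12 types was compared within the wild-type libraries by edgeR's quasi-likelihood test. Of the 660 comparisons of the 10 genes, 429 (65%) passed an adjusted p of 0.05, against 53.1% over all 14052 genes tested. The share was above that over all genes for the 10 together, and ranged from 24 of 66 pairs for Il11 to 53 of 66 for Osm. The differences below are on the log2 scale of this fit. The fit scales neutrophils upward by 0.87 log2 relative to plain CPM and the other types by -0.29 to 0.11, so fitted differences that involve neutrophils differ from those in plain CPM, in size and in some cases in sign.

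**Figure D1:**
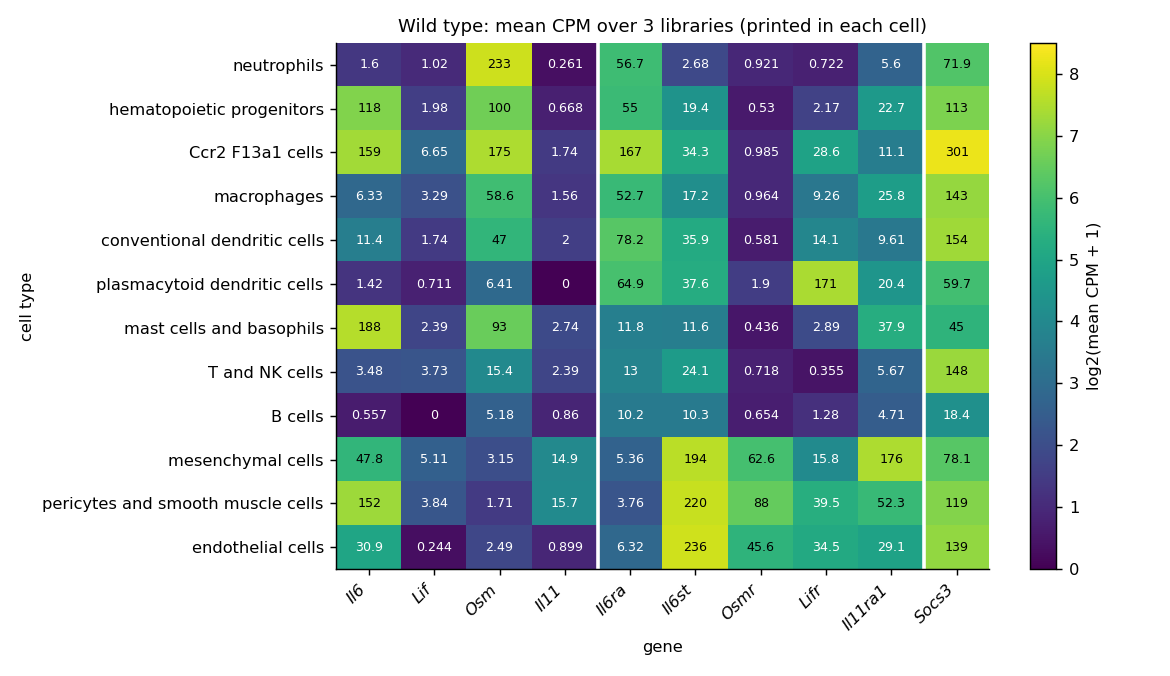
Mean level over the 3 wild-type libraries of the 10 genes (columns) in 12 cell types (rows); each cell prints the mean CPM and its colour is log2 of the mean CPM + 1. Osm lies mostly in myeloid types with its highest mean in neutrophils (233 CPM), whereas Osmr and Il6st lie mostly in mesenchymal cells, pericytes and smooth muscle cells, and endothelial cells.

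Among the ligands, Il6 (chr5:30013114-30019981, plus strand, GRCm38) had its highest mean in mast cells and basophils. Their 3 wild-type libraries read 189, 87.3 and 288 CPM. Ccr2 F13a1 cells read 45.3, 31.4 and 401 CPM, pericytes and smooth muscle cells 23.8, 37.7 and 395 CPM, and hematopoietic progenitors 38.3, 24.5 and 292 CPM. Mesenchymal cells, the fibroblast-like cells of the enthesis, read 28.7, 36.7 and 78.0 CPM. No step between neighbours in this order passed the test until mesenchymal cells exceeded endothelial cells (log2 difference 0.99, adjusted p = 0.0387). Endothelial cells in turn exceeded conventional dendritic cells by 1.77 (adjusted p = 0.0116). Beyond neighbours, mast cells and basophils exceeded 10 of the 11 other types, and did not pass against Ccr2 F13a1 cells (0.83, adjusted p = 0.0836). Mesenchymal cells lay below 2 types in the test. Levels were low in neutrophils, with 0.632, 0.832 and 3.33 CPM, and B cells held 0 Il6 UMIs in wild-type replicates 1 and 2, which allows at most 1.02 and 1.69 CPM.

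A single library weighed on all of these Il6 levels. Wild-type replicate 3 had the highest Il6 of the 3 wild-type libraries in 12 of 12 types, and of all 6 libraries in 7 of 12. Over its cells it held 8281 Il6 UMIs, against 1678 and 2051 in wild-type replicates 1 and 2 and 3519 to 4471 in the knockout libraries. RNA in barcodes of at most 100 UMIs, taken as free RNA, was likewise highest in wild-type replicate 3, with Il6 at 20.2, 16.7 and 105 CPM in wild type and 39.9 to 48.0 CPM in knockout. Without wild-type replicate 3, mast cells and basophils averaged 138 CPM and exceeded each of the 11 other types in the test. Ccr2 F13a1 cells then averaged 38.3 CPM, mesenchymal cells 32.7, progenitors 31.4 and pericytes and smooth muscle cells 30.8. Mast cells and basophils thus kept the highest mean without replicate 3, and the mean of all 5 types was lower without it, from 188 CPM in mast cells and basophils.

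How the Il6 UMIs were spread over cells differed between types and libraries. Among Ccr2 F13a1 cells, 6 of 1360, 6 of 1331 and 157 of 857 wild-type cells held at least 5 Il6 UMIs (cells not thinned to equal depth, median UMIs 4502.5, 3928 and 5021). These cells held 16.0%, 21.2% and 72.6% of the type's Il6 UMIs in wild type. In the knockout libraries they were 51 of 514, 37 of 806 and 36 of 796 cells. In mesenchymal cells, those at this limit held 34.0%, 45.4% and 76.0% of the Il6 UMIs in wild-type replicates 1, 2 and 3, and 153 UMIs of replicate 3 came from a single cell. In mast cells and basophils 19 of 106, 4 of 66 and 25 of 160 wild-type cells were at this limit and held 79.8%, 77.3% and 91.1% of the Il6 UMIs. At Leiden resolution 2.0, a finer clustering, the cluster of this name held 192 cells in place of 664. The second-best list of the 664 cells was that of hematopoietic progenitors. Its 9 markers summed to 2709, 3574 and 2519 CPM in wild-type replicates 1, 2 and 3, beside 4719, 4725 and 3026 CPM for the 9 markers of mast cells and basophils. The part of progenitors in the levels of this type was not tested. No neutrophil and no B cell of the wild-type libraries reached the limit.

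**Figure D2:**
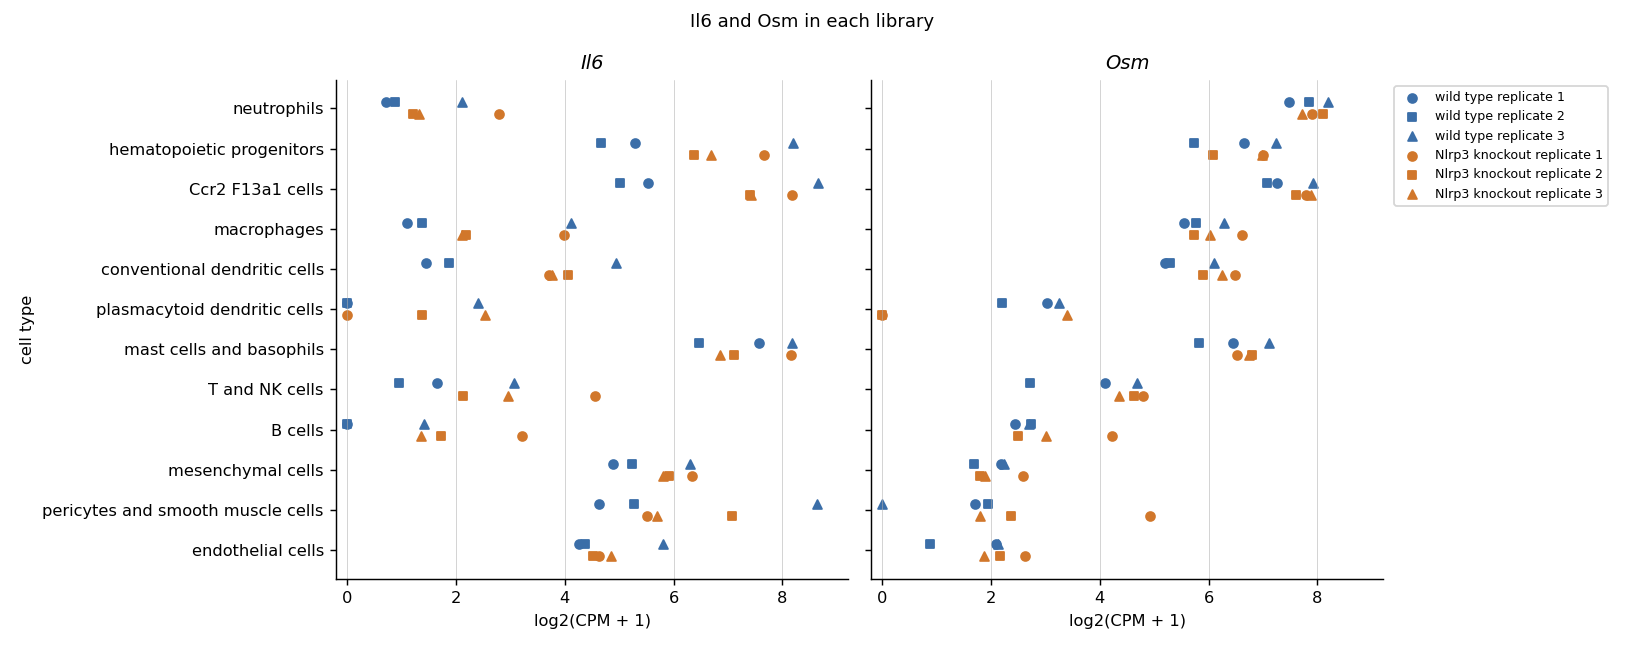
Levels of Il6 (left) and Osm (right) as log2(CPM + 1) on the horizontal axis, by cell type, with 1 point for each of the 3 wild-type (blue) and 3 knockout (orange) libraries. Wild-type replicate 3 is the highest wild-type library for Il6 in all 12 types, for example 401 CPM in Ccr2 F13a1 cells against 45.3 and 31.4.

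Osm (chr11:4236420-4241026, plus strand) encodes oncostatin M and had a different distribution. Neutrophils read 178, 229 and 291 CPM and Ccr2 F13a1 cells 151, 134 and 240 CPM. Progenitors averaged 100.5 ± 49.2 CPM, mast cells and basophils 93.0 ± 41.3, macrophages 58.6 ± 16.2 and conventional dendritic cells 47.0 ± 17.9. All 6 of these types are of the myeloid or progenitor kind, and they lay above T and NK cells at 15.4 ± 9.54 CPM (conventional dendritic cells over T and NK cells 1.80, adjusted p = 1.76e-05). The fitted difference of neutrophils over Ccr2 F13a1 cells was 1.26 (adjusted p = 1.07e-06), although the plain CPM ranges overlapped, and that of Ccr2 F13a1 cells over progenitors was 0.79 (adjusted p = 0.000706). The 3 stromal types held little Osm, with 3.15 ± 0.809 CPM in mesenchymal cells, 2.49 ± 1.43 in endothelial cells and 1.71 ± 1.51 in pericytes and smooth muscle cells.

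Lif (chr11:4257557-4272514, plus strand) lies 16530 bases from Osm, and its UMIs were few. Ccr2 F13a1 cells had the highest mean at 2.00, 4.80 and 13.1 CPM, followed by mesenchymal cells at 2.89, 3.14 and 9.29 CPM. These did not pass the test against each other (0.30, adjusted p = 0.470), and replicate 3 was again the highest wild-type library in both. Without it the mean of Ccr2 F13a1 cells was 3.40 CPM, and T and NK cells, at 5.33, 4.62 and 1.23 CPM in replicates 1, 2 and 3, had the highest mean at 4.97 CPM. Of 66 pairs of types, 29 passed for Lif, compared with 53 for Osm and 48 for Il6.

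Il11 (chr7:4772373-4782859, minus strand) was mainly a stromal transcript. Mesenchymal cells read 11.1, 17.1 and 16.6 CPM, and both these and pericytes and smooth muscle cells exceeded each of the 10 other types. Mesenchymal cells stood 2.52 above mast cells and basophils, the next type in the order (adjusted p = 0.000615). Pericytes and smooth muscle cells read 11, 6.21 and 29.9 CPM, but 26 UMIs of replicate 3, or 86.7% of its Il11 UMIs in that type, came from a single cell. Plasmacytoid dendritic cells held 0 Il11 UMIs in all 6 libraries, which allows at most 4.77 to 20.2 CPM for a library.

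A level does not show how much of the transcript a type contributed, because the types differ in number and depth. The share of each ligand's UMIs in each type was therefore computed in each wild-type library, as a description of the cells captured. Mesenchymal cells held 43.4 ± 22.0% of the Il6 UMIs (34.9%, 68.4% and 27.0%), progenitors 21.1 ± 13.6% (22.4%, 6.87% and 33.9%), Ccr2 F13a1 cells 16.1 ± 7.19% and mast cells and basophils 8.08 ± 5.79%. In replicate 3 progenitors thus held more of them than mesenchymal cells. Mesenchymal cells also held 50 ± 8.14% of the Lif UMIs and 81.2 ± 9.85% of the Il11 UMIs. Neutrophils held 48.3 ± 2.68% of the Osm UMIs, while Ccr2 F13a1 cells, macrophages and progenitors held between 14.2% and 15.7% each. The share of the leading type varied least between libraries for Osm and most for Il6.

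**Figure D3:**
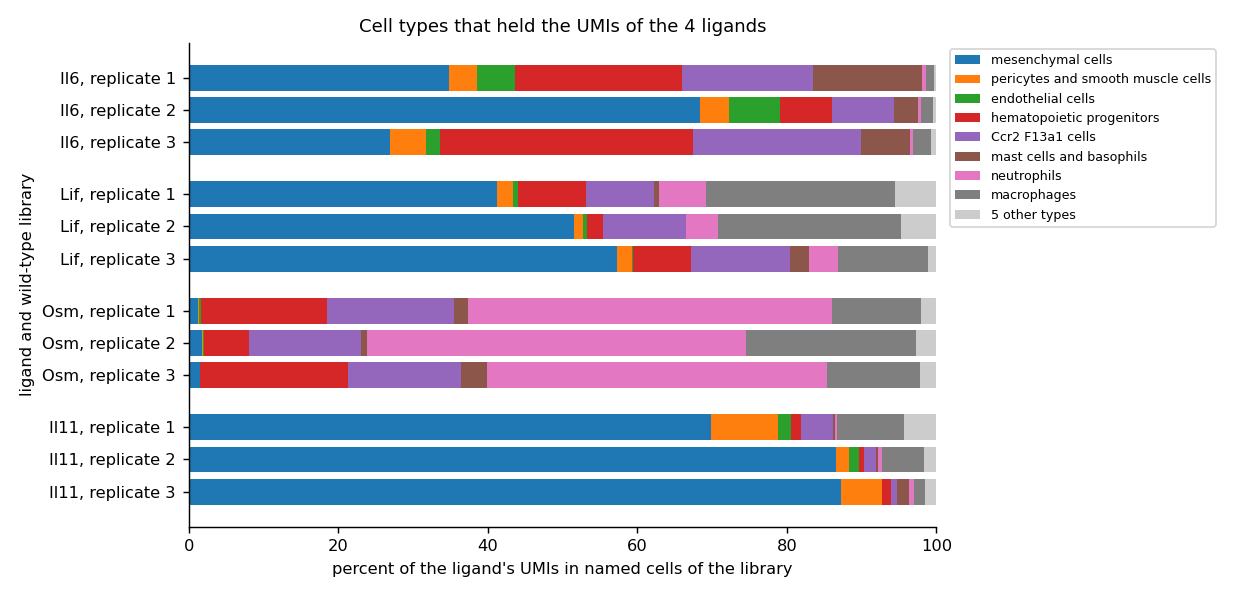
Stacked bars, 1 for each ligand and wild-type library, of the percent of the ligand's UMIs held by each cell type (horizontal axis from 0 to 100, colours are cell types). Mesenchymal cells hold 81.2% of Il11 and 50% of Lif on average, neutrophils hold 48.3% of Osm, and the division of Il6 differs between libraries.

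Among the receptors, Il6ra (chr3:89864059-89913196, minus strand), the subunit that binds IL-6, was mainly a leukocyte transcript. Ccr2 F13a1 cells read 157, 145 and 198 CPM and exceeded each of the 11 other types, by 1.11 over conventional dendritic cells (adjusted p = 9.74e-05). Conventional dendritic cells averaged 78.2 ± 16.6 CPM, plasmacytoid dendritic cells 64.9 ± 7.12, neutrophils 56.7 ± 14.8, progenitors 55.0 ± 6.87 and macrophages 52.7 ± 4.31. From macrophages to T and NK cells the level dropped by 2.11 (adjusted p = 5.01e-06). Mesenchymal cells had 5.36 ± 1.65 CPM, endothelial cells 6.32 ± 1.18 and pericytes and smooth muscle cells 3.76 ± 2.05. Neutrophils exceeded plasmacytoid dendritic cells in the fit (0.94, adjusted p = 0.00874) while their mean CPM was lower, so this order depends on the scaling.

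Il6st (chr13:112464070-112510086, plus strand), which encodes gp130, showed nearly the reverse pattern. Endothelial cells read 211, 192 and 306 CPM, pericytes and smooth muscle cells 137, 227 and 296 CPM, and mesenchymal cells 200, 226 and 155 CPM. These 3 did not pass against each other, and each exceeded the 9 others. The next type, plasmacytoid dendritic cells at 37.6 ± 6.52 CPM, lay 2.67 below mesenchymal cells (adjusted p = 5.89e-08). Macrophages had 17.2 ± 1.11 CPM and neutrophils, with 2.68 ± 1.85 CPM, the lowest mean of the 12 types.

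Osmr (chr15:6813577-6874969, minus strand), the OSM-binding partner of gp130, was nearly limited to stroma. Pericytes and smooth muscle cells read 61.3, 68.3 and 134 CPM, mesenchymal cells 59.5, 68.8 and 59.4 CPM and endothelial cells 41.4, 44.6 and 50.7 CPM. Mesenchymal cells exceeded endothelial cells by 0.68 (adjusted p = 0.00342). The means of the 9 other types were at most 1.90 CPM, a step of 4.84 below endothelial cells (adjusted p = 1.46e-07). Free RNA held 20.2 to 34.2 CPM of Osmr in the 6 libraries, and its part in the low levels of leukocytes was not tested.

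Lifr (chr15:7090614-7197489, plus strand) lies 215644 bases from Osmr and had another distribution. Plasmacytoid dendritic cells read 183, 147 and 183 CPM and exceeded each of the 11 other types, by 2.13 over pericytes and smooth muscle cells (adjusted p = 3.68e-07). Pericytes and smooth muscle cells averaged 39.5 ± 14.5 CPM, endothelial cells 34.5 ± 6.78 and Ccr2 F13a1 cells 28.6 ± 7.28, with no difference past the threshold between them. Mesenchymal cells followed at 15.8 ± 2.31 CPM, 0.88 below Ccr2 F13a1 cells (adjusted p = 0.00298).

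Il11ra1 (chr4:41699989-41769474, plus strand), the IL-11-binding subunit, was highest in mesenchymal cells, which read 165, 208 and 155 CPM. They exceeded each of the 11 other types, by 2.07 over pericytes and smooth muscle cells at 52.3 ± 12.7 CPM (adjusted p = 2.42e-13). Mast cells and basophils averaged 37.9 ± 2.77 CPM and B cells 4.71 ± 2.03. Mouse carries near-identical Il11ra2 copies, and the 3 copies in the annotation had 0 UMIs where Il11ra1 had 40297. How reads shared with the copies were counted was not tested, so the level of Il11ra1 is uncertain. Il11ra1 also overlaps Ccl27a by 8 bases on the other strand.

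Socs3, the inhibitor whose motif match is shown above, was found in all 12 types. Ccr2 F13a1 cells read 293, 206 and 404 CPM and exceeded each of the 11 others, by 0.99 over conventional dendritic cells (adjusted p = 0.00147). Conventional dendritic cells (154 ± 51.9 CPM), T and NK cells (148 ± 7.75), macrophages (143 ± 25.5) and endothelial cells (139 ± 68.0) did not pass between neighbours. Mesenchymal cells averaged 78.1 ± 16.1 CPM, mast cells and basophils 45 ± 6.13, and B cells 18.4 ± 10.3, which was below each of the 11 other types. Mast cells and basophils, the type with the highest mean Il6, thus ranked just above B cells for Socs3.

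Within neutrophils, the cells resembling mature neutrophils had the highest mean levels of Osm, Il6ra and Socs3. Osm was at 387, 321 and 366 CPM in mature neutrophils, 209, 268 and 390 CPM in immature neutrophils and 43.0, 92.1 and 75.4 CPM in dividing precursors. Il6ra averaged 114 ± 24.2 CPM in mature cells and 14.5 ± 3.39 in precursors. Socs3 averaged 201 ± 75.8 CPM in mature cells, 15.7 ± 2.35 in immature cells and 12.2 ± 8.73 in precursors. In each of these 3 genes all mature libraries lay above all precursor libraries. The subsets were described by their levels, and differences between them were not tested.

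Within macrophages, the cells resembling inflammatory monocytes had the highest mean levels of Osm and Socs3, at 206 ± 67.8 and 296 ± 119 CPM. Osm averaged 75.4 ± 18.6 CPM in Arg1 Spp1 macrophages, 72.6 ± 27.1 in MHC-II macrophages, 42.3 ± 18.4 in C1q Mrc1 macrophages and 16.7 ± 6.69 in osteoclast-like cells. The Osm libraries of inflammatory monocytes (144, 196 and 279 CPM) did not overlap those of any of the other 5 macrophage subsets. Both Ccr2 and F13a1 are on the marker list of inflammatory monocytes. The separately clustered Ccr2 F13a1 cells averaged 175 ± 56.5 CPM of Osm and 301 ± 99.5 CPM of Socs3. Whether they are a different kind of cell from inflammatory monocytes was not tested.

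Within mesenchymal cells the levels are again given for each subset without a test. Il6 read 40.7, 35.3 and 214 CPM in inflammatory fibroblasts, 33.3, 61.0 and 191 CPM in synovial lining fibroblasts and 18.3, 16.6 and 187 CPM in universal fibroblast progenitors, and wild-type replicate 3 was the highest in each. Il11 was at 24.5, 60.2 and 81.2 CPM in synovial lining fibroblasts and at 6.29, 9.11 and 6.17 CPM in inflammatory fibroblasts. Its highest mean, 62.2 ± 54.7 CPM, was in chondrocyte-like cells, where the libraries ranged from 12.2 to 121 CPM. Il6st averaged 305 ± 25.4 CPM in inflammatory fibroblasts and 122 ± 21.4 in synovial lining fibroblasts. Il11ra1 averaged 409 ± 80.6 CPM in universal fibroblast progenitors, 317 ± 48.0 in matrix fibroblasts and 67.2 ± 10.2 in synovial lining fibroblasts.

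**Figure D4:**
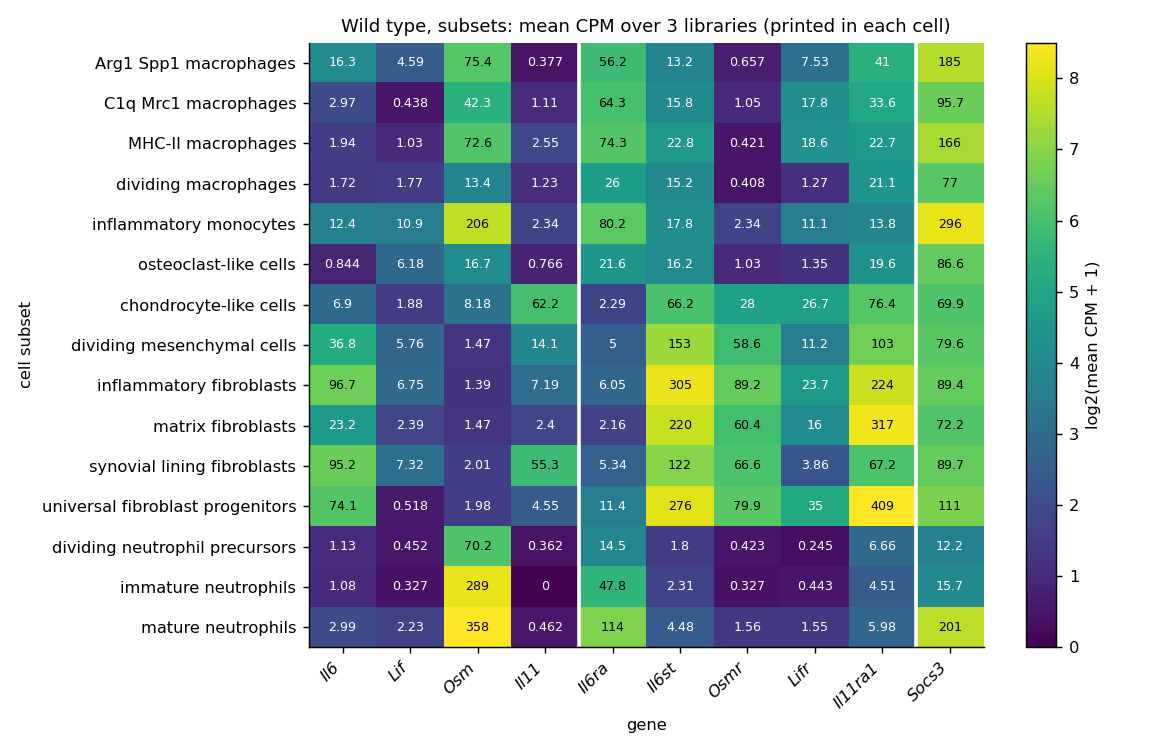
Mean level over the 3 wild-type libraries of the 10 genes (columns) in subsets of macrophages, neutrophils and mesenchymal cells (rows); each cell prints the mean CPM and its colour is log2 of the mean CPM + 1. Il11ra1 reaches 409 CPM in universal fibroblast progenitors, and Osm 358 CPM in mature neutrophils.

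Of 46 other genes of the pathway, 41 were tested in the wild-type comparison. Between mesenchymal cells and neutrophils 14 were higher in mesenchymal cells and 22 lower (background 80.6% of all genes in either direction). Those higher included Socs2, a further feedback inhibitor (log2 difference 5.06, adjusted p = 4.21e-13), and Timp1, a metalloproteinase inhibitor (6.15, adjusted p = 2.25e-16). Those lower included Ebi3, a soluble subunit of IL-27 and IL-35 (0.350 ± 0.214 against 41.3 ± 1.20 CPM), and Lrg1, a secreted glycoprotein induced by STAT3 in many cells (4.33 ± 1.86 against 357 ± 89.4 CPM). Against Ccr2 F13a1 cells 13 were higher in mesenchymal cells and 20 lower (background 72.9%), among the latter the kinase gene Pim1 with 28.3 ± 5.82 against 604 ± 140.1 CPM. Neutrophils exceeded Ccr2 F13a1 cells in 16 and fell below them in 9 (background 57.4%). Lrg1 was 3.74 higher in neutrophils, and the adaptor gene Gab1 4.92 lower. Of the 15 genes listed as STAT3-induced, 7 were higher and 4 lower in Ccr2 F13a1 cells than in mesenchymal cells (background 72.9%). In neutrophils 10 were higher and 5 lower than in mesenchymal cells (background 80.6%). Against Ccr2 F13a1 cells 8 were higher in neutrophils and 2 lower (background 57.4%).

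The comparison between genotypes asked whether the transcripts differed in the absence of Nlrp3. Of 120 combinations of gene and cell type, 86 passed the filter on low counts. None passed an adjusted p of 0.05 in edgeR's quasi-likelihood test, against a background of 0.388% of all genes, and 9 had an unadjusted p under 0.05, against 8.20% to 21.9% of all genes in a type. DESeq2, the other tool run, called 1 (background 1.93%), Il6ra in neutrophils. The lowest edgeR adjusted p was 0.111. Over the 14 subsets 89 of 140 combinations were tested and none passed (background 0.564%), with 12 at an unadjusted p under 0.05, against 7.19% to 19.1% of all genes in a subset, and 1 called by DESeq2, Il6 in dividing mesenchymal cells. In plain CPM the groups did not overlap in 11 of the 86 combinations, 9 with knockout higher and 2 with knockout lower. This is a smaller share than the 21.1% of all genes (16.5% higher and 4.58% lower). After TMM scaling 10 did not overlap, 6 higher and 4 lower, against 18.4% of all genes (9.31% higher and 9.08% lower).

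**Figure D5:**
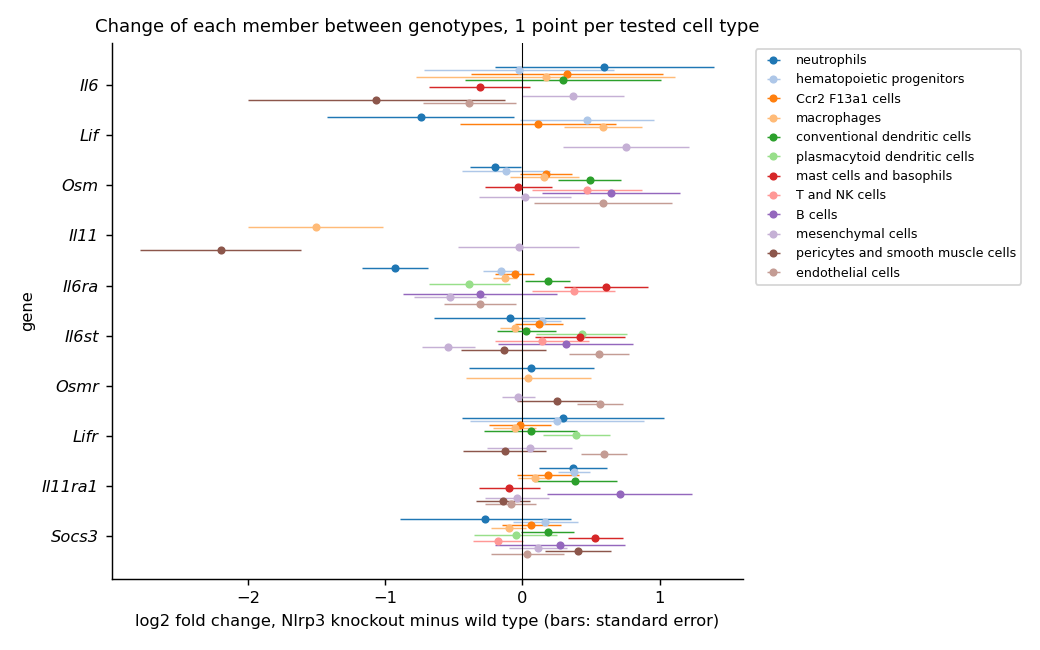
Fitted log2 change (knockout minus wild type, horizontal axis) of the 10 genes (rows), with 1 point for each tested cell type and bars of 1 standard error. No change passed an adjusted p of 0.05, and the values run from -2.20 (Il11 in pericytes and smooth muscle cells) to 0.75 (Lif in mesenchymal cells).

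Among the ligands, Il6 in Ccr2 F13a1 cells read 289, 169 and 169.8 CPM in knockout replicates 1, 2 and 3, within the wild-type range of 31.4 to 401 CPM. The fitted change was 0.33 (SE 0.70, adjusted p = 0.848). In these cells the 10 neutrophil markers summed to 1355, 1716 and 2679 CPM in knockout and 4506, 3233 and 4488 CPM in wild type, with 1 of 9 tested markers called lower, and their part in the values of this type was not tested. Without wild-type replicate 3 the 3 knockout libraries all lay above the remaining pair of wild-type libraries, and the change became 2.25 (SE 0.29, adjusted p = 0.00298). In the same fit Il6 was higher in knockout by 2.29 in conventional dendritic cells (adjusted p = 0.00989) and by 1.73 in progenitors (adjusted p = 0.0208), where the value with all libraries was -0.02. It did not pass in mesenchymal cells (0.90, adjusted p = 0.0632), macrophages (2.19, adjusted p = 0.0908), pericytes and smooth muscle cells (1.14, adjusted p = 0.298, against -1.07 with all libraries) or mast cells and basophils (0.05, adjusted p = 0.963, against -0.31 with all libraries). Over the subsets it then passed in inflammatory fibroblasts (1.60, adjusted p = 0.0286, against 0.31 with all libraries) and MHC-II macrophages (2.67, adjusted p = 0.0179), against a background of 6.78%. Inflammatory fibroblasts joined clusters that the libraries filled unequally, as given below for Il11, and the part of this mix in the Il6 change was not tested. Without that library, 10 of 87 combinations passed (11.5%), and so did 8.32% of all genes, so the gain in calls was not particular to this family. The labels give no reason to leave the library out. It had the highest wild-type Il6 in 12 of 12 types, so leaving it out lowers the wild-type means by construction. The p-values without it are therefore no support for a difference, and the call for Il6 depends on whether the library is counted.

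Osm in neutrophils read 237, 274 and 209 CPM in knockout and 178, 229 and 291 CPM in wild type (-0.20, SE 0.18, adjusted p = 0.633). The groups overlapped in all 12 types. The lowest adjusted p was in conventional dendritic cells, with 88.8, 58.4 and 74.7 CPM in knockout and 35.5, 38.0 and 67.6 CPM in wild type (0.49, SE 0.23, adjusted p = 0.298), where leaving out wild-type replicate 3 gave 0.73 (adjusted p = 0.0489, background 8.32% over the types). In inflammatory monocytes Osm was at 454, 327 and 266 CPM in knockout and 144, 196 and 279 CPM in wild type (0.70, SE 0.25, adjusted p = 0.389). Lif in mesenchymal cells read 9.32, 7.44 and 10.4 CPM in knockout and 2.89, 3.14 and 9.29 in wild type (0.75, SE 0.46, adjusted p = 0.476), and 1.5 (adjusted p = 0.0434, background 8.32% over the types) without wild-type replicate 3. Mesenchymal subsets differed in share between the libraries, for example chondrocyte-like cells with 27.2% of mesenchymal cells in knockout replicate 2 and at most 6.96% in the others. Fits of mesenchymal cells without inflammatory fibroblasts and without unnamed subsets each called 0 of the 10 genes (background 0.112% and 0.114%). The part of the mix in the Lif change was not tested further.

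Il11 in pericytes and smooth muscle cells read 3.39, 2.79 and 3.72 CPM in knockout, below all 3 wild-type libraries (11, 6.21 and 29.9 CPM; -2.20, SE 0.59, adjusted p = 0.453). The highest wild-type value rests on a single cell. Knockout replicate 1 held 876 cells of this type at a median of 1492.5 UMIs, with the 10 neutrophil markers summed to 6799 CPM against at most 2439 in the other libraries. In inflammatory fibroblasts Il11 was at 1.21, 2.60 and 3.47 CPM in knockout and 6.29, 9.11 and 6.17 CPM in wild type (-1.41, SE 0.36, adjusted p = 0.182). The change was -1.51 (adjusted p = 0.0411, background 6.78% over the subsets) without wild-type replicate 3. This subset was made of 3 clusters that the libraries filled unequally, 1 with 63.1% of its cells from wild-type replicate 2 and the others with 43.0% and 45.4% from knockout replicate 3, and the part of this mix in the change was not tested. The groups did not overlap in either, and neither passed with all libraries. Il11 in macrophages was low, at 0.557, 0.992 and 0.449 CPM in knockout and 1.94, 2.07 and 0.674 CPM in wild type (-1.51, SE 0.49, adjusted p = 0.195), and -1.85 (adjusted p = 0.0171, background 8.32% over the types) without wild-type replicate 3.

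Il6 in dividing mesenchymal cells showed the highest fitted change over the subsets. It read 296, 181 and 67.4 CPM in knockout and 30.9, 43.1 and 36.3 CPM in wild type (2.17, SE 0.46, adjusted p = 0.329). Here wild-type replicate 3 lay between the other wild-type libraries, and the groups did not overlap. The change passed in DESeq2 (adjusted p = 7.30e-05, background 1.46%) and without knockout replicate 3 (2.57, adjusted p = 0.0343, background 0.188%). Knockout replicate 3 was the lowest knockout library here, so leaving it out raises the knockout mean by construction. The p-value without it is therefore no support for a difference. Socs3 in the same cells read 171, 139.5 and 113 CPM in knockout and 69.8, 86.3 and 82.5 CPM in wild type (0.70, SE 0.18, adjusted p = 0.394).

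Among the receptors, Il6ra in neutrophils read 37.4, 33.6 and 36.0 CPM in knockout and 55.9, 71.9 and 42.3 CPM in wild type, without overlap (-0.93, SE 0.24, adjusted p = 0.195). It passed in DESeq2 (-0.94, adjusted p = 0.0393, background 2.27% of genes in neutrophils) and without the filter on low counts (-0.93, adjusted p = 0.0472). Mature cells, which had the highest mean Il6ra of the 3 subsets, were 52.9%, 21.5% and 26.1% of neutrophils in knockout and 61.5%, 73.3% and 51.5% in wild type. Within mature neutrophils the libraries read 57.3, 101 and 114 CPM in knockout and 129, 127 and 85.7 CPM in wild type, the groups overlapped, and the change was -0.41 (adjusted p = 0.784). The libraries also filled the clusters of mature neutrophils unequally, with 67.1% of the cells of 1 cluster from wild-type replicate 1. The part of the mix of subsets in the difference was not tested beyond these values.

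In endothelial cells 3 receptor genes had their lowest adjusted p over the types. Osmr read 62.2, 98.8 and 64.9 CPM in knockout and 41.4, 44.6 and 50.7 CPM in wild type (0.57, SE 0.17, adjusted p = 0.116). Lifr read 58.6, 67.1 and 45.8 CPM in knockout and 32.1, 29.2 and 42.1 CPM in wild type (0.60, SE 0.17, adjusted p = 0.111). Il6st read 291, 538 and 326 CPM in knockout and 211, 192 and 306 CPM in wild type, with overlap (0.56, SE 0.22, adjusted p = 0.178). All 3 passed without the filter on low counts (adjusted p = 0.0149, 0.0140 and 0.0158 in turn, background 6.43% of endothelial genes and 2.18% over all types) and without wild-type replicate 3 (background 23% of endothelial genes). The 10 mesenchymal markers summed to 536, 676 and 914 CPM in these knockout cells and 189 to 380 CPM in wild type. All 8 that were tested had a positive fitted change, and only Col5a2 passed (1.08, adjusted p = 0.0244). Pdgfra and Pdgfrb were too low to be tested. Pdgfra was at 2.07, 1.90 and 2.65 CPM in knockout and 0.651, 1.53 and 0 CPM in wild type. Pdgfrb was at 5.96, 1.90 and 4.17 CPM in knockout and 0.651, 1.95 and 0.752 CPM in wild type. The part of these markers' source in the receptor values was not tested.

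In mesenchymal cells Il6st read 144, 112 and 163 CPM in knockout and 200, 226 and 155 CPM in wild type (-0.54, SE 0.20, adjusted p = 0.384). Inflammatory fibroblasts, the mesenchymal subset with the highest mean Il6st, were 3.48% to 16.9% of mesenchymal cells in knockout and 16.4% to 43.6% in wild type. The fit within the subset gave -0.33 (adjusted p = 0.358). A fit of mesenchymal cells without them called 0 of the 10 genes (background 0.112%), as did the fit with them, and their part in this value was not tested further. Osmr in mesenchymal cells was at 58.1 to 69.6 CPM in knockout and 59.4 to 68.8 in wild type (-0.03, SE 0.12). Il11ra1 in progenitors read 32.8, 35.2 and 33.6 CPM in knockout and 21.1, 21.0 and 25.9 CPM in wild type (0.38, SE 0.12, adjusted p = 0.154). Leaving out wild-type replicate 3 gave 0.42, which passed (adjusted p = 0.0370, background 8.32% over the types). The 10 mesenchymal markers summed to 505, 465 and 825 CPM in the knockout progenitors and 154, 295 and 309 CPM in wild type, with 1 of 9 tested markers called higher. The 10 neutrophil markers summed to 17987, 29727 and 40008 CPM in knockout and 53258, 54502 and 34274 CPM in wild type, with 1 called lower, and 1 of 9 progenitor markers was called higher. The part of these markers in the Il11ra1 and Il6 values of progenitors was not tested.

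Socs3 was tested in all 12 types and passed in none. In Ccr2 F13a1 cells it read 356, 289 and 389 CPM in knockout and 293, 206 and 404 CPM in wild type (0.07, SE 0.21, adjusted p = 0.900). In mast cells and basophils the groups did not overlap, with 64.9, 83.1 and 67.1 CPM in knockout and 38.8, 45 and 51.1 CPM in wild type (0.53, SE 0.20, adjusted p = 0.364). The 10 mesenchymal markers summed to 905, 1016 and 949 CPM in these knockout cells and 195, 443 and 379 CPM in wild type, with 2 of 9 tested markers called higher, and 1 of 9 markers of mast cells and basophils was called lower. The part of these values in the Socs3 change was not tested. In dividing macrophages the change was 0.55 (SE 0.19, adjusted p = 0.144), the lowest adjusted p over the subsets, and 0.82 (adjusted p = 0.00637) without wild-type replicate 3. In that setting 4 of 93 combinations of the 10 genes and subsets passed (4.30%), against 6.78% of all genes.

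Of the 46 other pathway genes, 2 of 424 combinations of gene and type passed, both lower in knockout, and 2 of 473 over the subsets, both higher. These shares, 0.472% and 0.423%, were near the background of 0.388% and 0.564% of all genes. Saa3, an acute-phase protein gene, fell in mast cells and basophils from 29.5, 52.9 and 36.2 CPM to 11.8, 5.10 and 3.25 CPM (-3.0, adjusted p = 0.00201). Saa3 is also on the marker list of inflammatory fibroblasts, which were 16.4% to 43.6% of mesenchymal cells in wild type and 3.48% to 16.9% in knockout. The part of free RNA, and of the marker levels given above for mast cells and basophils, in the Saa3 change was not tested. Vegfa, an angiogenic factor, fell in T and NK cells from 64.0, 66.5 and 46.7 CPM to 27.6, 10.1 and 24.4 CPM (-1.67, adjusted p = 0.0256). The 10 T and NK cell markers summed to 6768, 10500.2 and 9150.4 CPM in these knockout cells and 10246, 11624 and 12234 CPM in wild type, with 1 of 10 called lower, as were 1 plasmacytoid dendritic cell marker and 1 progenitor marker, and their part in the change was not tested. In immature neutrophils Bcl3, a regulator of NF-κB, rose from 9.33, 7.97 and 8.97 CPM to 27.3, 38.6 and 44.5 CPM (1.81, adjusted p = 0.00263). Cish, a SOCS-family inhibitor, rose in the same cells from 2.46, 1.33 and 6.73 CPM to 10.9, 18.8 and 15.9 CPM (1.98, adjusted p = 0.0277). Immature neutrophils were made of 2 clusters that the libraries filled unequally, 1 with 59.0% of its cells from wild-type replicate 1 and the other with 43.8% from knockout replicate 2, and the part of this mix in both changes was not tested. They had 2.29% of their genes called, more than the 0.564% over all subsets.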

How the data were processed

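The authors deposited raw UMI counts per gene and barcode for each library, made with Cell Ranger (version 2.1.1 in the submitters' processing notes, version 4 in the matrix headers) on mm10. From these counts, barcodes of at least 500 UMIs that differed from the free RNA of barcodes of at most 100 UMIs (false discovery rate 0.01, 10000 simulated profiles) were kept, with at least 200 genes and at most 10% mitochondrial UMIs. Doublets were removed by Scrublet rank at 0.8% per 1000 cells, since its automatic threshold marked 0 cells in knockout replicate 1. Cells were clustered with scanpy 1.11.5 (Leiden resolution 1.0, 2000 variable genes, 30 components) without the 10 genes. A cluster was named when at least 3 markers of its best list were 1.5-fold higher and the list led by 0.4 log units, thresholds set after clusters had been seen. Clusters with over 75% of cells from 1 library and shallow depth were set aside. Summed counts were tested with edgeR 4.0.16 in R 4.3.3 (TMM, filterByExpr, glmQLFTest, Benjamini-Hochberg over all genes, and over all genes and pairs between types, with library as a block). DESeq2 1.42.0 was an alternative. Steps were tested on simulated data. The genes and lists were chosen with earlier results of these data known. All 10 genes were named; other pathway genes only where they passed the threshold, at most 6 per direction. Sequences came from RefSeq and positions from GENCODE on GRCm38. Erythrocytes and chondrocyte-like cells had too few cells in a library for the genotype test. Intervals and limits cover counting error only. The values of 1 of the other pathway genes are not reported here.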

Additional observations from a re-analysis of the deposited data

Results flagged for a closer look

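The fitted changes of Il6ra had opposite signs in different cell types, with no overlap between the genotypes in 3 of 11 tested types (background 21.1% of all genes). In neutrophils all knockout libraries were lower (log2 change -0.93), whereas they were all higher in T and NK cells, with 18.7, 20.2 and 18.5 CPM against 11.7, 13.9 and 13.5 CPM (0.37, adjusted p = 0.674), and in mast cells and basophils, with 17.7, 24.1 and 16.2 CPM against 10.1, 11.9 and 13.3 CPM (0.61, adjusted p = 0.518). The difference between these types was not tested, and none of the 3 changes passed edgeR's adjusted p of 0.05. A library held 222 to 376 T and NK cells and 62 to 180 mast cells and basophils, so their Il6ra levels rest on few UMIs. The part of the marker levels given above for both types in these values was not tested. After TMM scaling Il6ra did not overlap in 2 types with knockout higher and in 3 with knockout lower (background 18.4% of all genes).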

How the results depend on the processing

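The count of the 10 genes' differences between wild-type types (429 of 660) stayed between 401 and 468 under another normalization, no filter, DESeq2, no library block, 1000 UMIs per cell, free RNA subtracted and no TMM factors, was 286 of 450 at Leiden resolution 2.0, and ranged from 388 to 427 when a wild-type library was left out. Between genotypes the count over types was 0, and 1 in DESeq2 (background 1.93%), 4 without the filter on low counts (background 2.18%) and 0 to 10 when a library was left out. The 10 came without wild-type replicate 3, which also turned the Il6 change in progenitors from -0.02 to 1.73 (-0.51 to 1.73 over the libraries left out), in pericytes and smooth muscle cells from -1.07 to 1.14, in endothelial cells from -0.39 to 0.17 and in mast cells and basophils from -0.31 to 0.05. Over subsets it was 0, and 1 in DESeq2 and 0 to 4 when a library was left out, 4 without wild-type replicate 3 (background 6.78%) and 1 without knockout replicate 3. The cause of these changes was not tested. The shared replicate numbers are not stated to pair the libraries. Deviations of same-numbered libraries correlated at -0.578 to 0.435, which cannot decide on pairing, since differently numbered libraries were not compared. A fit with the replicate number as a block called 0 over types and 0 over subsets, with 567 calls over all genes against 466. All other alternatives called 0, among them the other size factors, stricter cell filters, the set-aside clusters kept, mesenchymal cells without inflammatory fibroblasts and, chosen after seeing the data, no TMM factors and mesenchymal cells without unnamed subsets. Shares of ligands moved by less than 1 SD. Simulated counts held 14825 genes in mesenchymal cells and 12400 in macrophages. A change was planted in 100 genes of each size, all above a minimum mean level. The genotype test recovered 28% of 2-fold and 96% of 4-fold changes in mesenchymal cells and 96% of 2-fold changes in macrophages. Changes of about 2-fold in mesenchymal cells were thus often not detectable at this depth and spread. The test of macrophages against mesenchymal cells recovered 12% of 2-fold and 95% of 4-fold changes among 14319 genes. Its simulated spread was set and not taken from the data. Types that did not pass against each other may therefore still differ by about 2-fold. Recovery at lower levels, such as those of Lif (wild-type means 5.11 CPM in mesenchymal cells and 3.29 in macrophages), was not simulated.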

Other observations

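Over the wild-type means of the 12 types and 14 subsets (26 points on the log2(CPM + 1) scale, which share libraries, with subsets contained in their types), the genes most like Osmr were Serpinh1, a collagen chaperone (Pearson r = 0.992), Pcdh19 (0.991) and Fkbp10 (0.991), of 10043 genes compared. Those most like Osm were Lilrb4a (0.963), Lilr4b (0.962) and Igsf6 (0.961), and those most like Il6ra were Tpd52 (0.943), the Src-family kinase gene Fgr (0.941) and Synj1 (0.940). Il6 had no gene as close, with Klf9 at 0.777, Rbm43 at 0.761 and Nfix at 0.755. The points are cell groups of the same libraries, so these values describe patterns and carry no test.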
